A study of Homo sapiens with 27 samples.

Results

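The shRNAs set apart only in UMSCC8 were the clones of a pooled kinome shRNA library whose abundance in DMSO-treated UMSCC8 cells lay well outside that in DMSO-treated UMSCC1 and UMSCC25 cells. Abundance is given as CPM, the counts of an shRNA scaled to 1000000 counts in its library. An shRNA was chosen when the highest of the 3 line means over the DMSO plates was at least 100 CPM, and when the UMSCC8 mean was at least 3-fold above the higher, or at least 3-fold below the lower, of the UMSCC1 and UMSCC25 means. This rule found 38 of the 3177 shRNAs in the table, 31 of them higher in UMSCC8 and 7 lower, while 2330 shRNAs met the minimum of 100 CPM. The members were thus chosen by their CPM in the 9 DMSO libraries, and those values are given as a description with no test.

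UMSCC8, UMSCC1 and UMSCC25 are established lines of head and neck squamous cell carcinoma. Each line had been transduced with a lentiviral shRNA library against human kinases and then received AZD8931, gefitinib or the vehicle DMSO for 72 h, followed by 72 h of recovery without the agent. There were 3 plates for each line and agent, 27 libraries in 9 groups, and every plate carried the library, the DMSO plates included. The treatment protocol of the labels gives 30 nM AZD8931 and 300 nM gefitinib, whereas another field of the same labels gives 1 µM for each agent. Since each line had its own transduction, a property of the line and an accident of its transduction cannot be told apart here. By the paper's methods each line was transduced on duplicate plates, and its library-bearing cells were afterwards split over the 9 plates, so the plates are described as splits of the line's transduced cells. The p-values below reflect how much the plates of a group varied, and that variation may be technical.

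In a pooled shRNA screen each cell carries an integrated cassette that is transcribed into a short hairpin RNA, which the cell's RNA interference machinery processes into a small RNA that lowers the level of a matching mRNA. The integrated cassette is also a barcode, because its count in the genomic DNA shows how much of the population descends from the cells that took it up. An shRNA that slows growth loses ground and an shRNA that favours growth gains it, and the count also depends on how many cells were infected at the start and on which clones happened to expand. Gefitinib inhibits the epidermal growth factor receptor, and AZD8931 inhibits EGFR together with ERBB2 and ERBB3, its relatives in the same receptor family. The table lists the clones by TRC identifier without a target gene, and a target is named below only for the clones that the paper pairs with a TGF-beta receptor.

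Library totals ranged from 178406 to 559422 counts, so that a count of 0, which allows up to 3 counts, corresponded to at most 16.8 CPM in the shallowest library and 5.36 CPM in the deepest. Such limits cover counting error only, because the cassettes were amplified without molecular identifiers and several reads can stem from the same molecule. Among the UMSCC8 libraries, DMSO replicate 1 stood apart, with 328 shRNAs at 0 against 81 to 139 in the other 8 plates, and with a median correlation of 0.776 to the other plates of its line against 0.849 to 0.906 (Pearson, log2(CPM + 10), across shRNAs). Its values entered the choice of every member. UMSCC8 gefitinib replicate 3 was the shallowest library, with 178406 counts against 396006 to 516174 in the other UMSCC8 plates. In UMSCC1, AZD8931 replicate 1 had 354 shRNAs at 0 against 163 to 260 in the other plates of the line, and in DMSO replicate 2 the most abundant shRNA held a larger share of the counts than that of any other library did (2.40% to 8.32%).

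The 31 shRNAs higher in UMSCC8 averaged between 101 and 606 CPM over the UMSCC8 DMSO plates, with a median of 182 CPM, and stood 3.02-fold to 45.6-fold above the nearer of the other lines, with a median of 4.23-fold. The nearer line was UMSCC1 for 15 of them and UMSCC25 for 16. Together they held 0.578%, 0.594% and 1.02% of the counts in the UMSCC8 DMSO plates, from the lowest to the highest, against 0.109% to 0.133% in the UMSCC1 and 0.117% to 0.155% in the UMSCC25 DMSO plates. The 7 shRNAs lower in UMSCC8 averaged between 15.5 and 82.7 CPM and lay 3.24-fold to 4.56-fold below the nearer line. They held 0.00726% to 0.0390% of the UMSCC8 DMSO counts, against 0.0846% to 0.118% in UMSCC1 and 0.117% to 0.138% in UMSCC25.

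The largest ratio belonged to TRCN0000040045, which had 290, 26.8 and 35.5 CPM in the UMSCC8 DMSO plates, against 0, 7.73 and 0 CPM in UMSCC1 and 0 CPM in all UMSCC25 DMSO plates. It rested on 153 counts, 124 of them in DMSO replicate 1, and on 2 counts in UMSCC1. TRCN0000104126 had 520, 95.0 and 237 CPM in UMSCC8, against 2.17, 27.1 and 28.5 CPM in UMSCC1 and 15.2, 19.2 and 0 CPM in UMSCC25. The 3 UMSCC8 plates of both clones lay above all 6 plates of the other lines, but those of TRCN0000040045 were spread over more than 10-fold. TRCN0000003179 was more even, with 524, 436 and 296 CPM in UMSCC8, against 43.4, 61.8 and 2.04 CPM in UMSCC1 and 10.9, 4.27 and 15.1 CPM in UMSCC25. TRCN0000052623 was the most even of these, with 337, 244 and 243 CPM in UMSCC8 (274 ± 54.3, SD, n = 3), against 17.4, 19.3 and 59.0 CPM in UMSCC1 and 17.4, 29.9 and 2.15 CPM in UMSCC25. The most abundant member, TRCN0000006348, had 763, 580 and 475 CPM in UMSCC8, against 30.4, 128 and 65.1 CPM in UMSCC1 and 43.4, 128 and 120 CPM in UMSCC25.

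At the other extreme, TRCN0000000447 had 115, 2.44 and 580 CPM in the UMSCC8 DMSO plates (232 ± 306, SD, n = 3), against 17.4, 7.73 and 99.8 CPM in UMSCC1 and 126, 51.3 and 21.5 CPM in UMSCC25, so that the lines overlapped and its mean rested on replicate 3. TRCN0000006255 rested mainly on replicate 2, with 70.2, 290 and 105 CPM in UMSCC8, against 23.9, 7.73 and 4.07 CPM in UMSCC1 and 65.1, 10.7 and 25.8 CPM in UMSCC25. Nearest to the threshold on its inner side were TRCN0000021391, with a ratio of 3.02 and line means of 173 CPM in UMSCC8, 1.29 CPM in UMSCC1 and 57.4 CPM in UMSCC25, and TRCN0000006074, with a ratio of 3.06. Just outside lay TRCN0000003223, with a ratio of 2.97 and line means of 374, 114 and 126 CPM in the same order, and TRCN0000022004, with a ratio of 2.95. Among the lower shRNAs TRCN0000010154 lay just inside at 3.24-fold and TRCN0000000463 at 3.34-fold, and TRCN0000000793 at 2.83-fold and TRCN0000002095 at 2.75-fold lay just outside.

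Much of the choice turned on the UMSCC8 library that stood apart. DMSO replicate 1 was the highest of the 3 UMSCC8 DMSO plates for 23 of the 31 higher shRNAs, against 37.3% of the 2330 shRNAs that met the minimum, and it held most of the summed UMSCC8 DMSO CPM for 16 of the 31, against 8.54% of the 2330. Of the 7 lower shRNAs it was the lowest plate for 6, against 41.3% of the 2330. With that library left out, 18 of the 38 members still met the rule, 16 of them higher and 2 lower, and 20 no longer did. The members that were lost with the largest share of their UMSCC8 DMSO signal in replicate 1 were TRCN0000040045, with 82.3% there, and TRCN0000040008, with 70.0%. The next were TRCN0000000560, TRCN0000010272, TRCN0000005365 and TRCN0000006424, with 60.5% to 68.6%. TRCN0000000560 had 365, 39.0 and 128 CPM, TRCN0000010272 461, 82.8 and 134 CPM, and TRCN0000005365 309, 68.2 and 88.8 CPM in the UMSCC8 DMSO plates, so replicate 1 was the high plate in each. Without it the lower shRNAs TRCN0000002066 and TRCN0000010154 still met the rule.

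The treated plates took no part in the choice. They came from the same transduced cells, so they repeat the plating, the culture and the library preparation but not the transduction. The 18 AZD8931 and gefitinib libraries were fitted together with edgeR's quasi-likelihood test, and each UMSCC8 contrast was averaged over the agents. All 38 members were among the 3125 shRNAs tested, with p-values adjusted over all of them (Benjamini-Hochberg, threshold 0.05). Of the 31 higher shRNAs, 22 were called higher in UMSCC8 than in UMSCC1, where 18.1% of all shRNAs tested were, and 16 were called higher than in UMSCC25, where 7.42% were. Against both lines 12 of the 31 were called higher, beside 3.62% of all shRNAs tested and 3.69% of the 2330 that met the minimum of 100 CPM. The remaining 19 were called against UMSCC1 alone (10), against UMSCC25 alone (4) or against neither (5).

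For 10 of the 31 higher shRNAs all 6 treated UMSCC8 plates lay above all 12 treated plates of the other lines, a pattern found for 2.40% of all shRNAs tested. The median log2 difference of the 31 in treated plates was 2.12 against UMSCC1 (range -0.48 to 5.76) and 1.77 against UMSCC25 (-0.46 to 3.33), whereas the medians over all shRNAs tested were 0.06 and 0.02. The difference was positive for 29 of the 31 against each line. The rule applied to the AZD8931 plates in place of the DMSO plates was met by 10 of the 31, or 27.0% of the 37 shRNAs it then found (1.16% of the table). Applied to the gefitinib plates it was met by 12 of the 31, or 20.3% of the 59 found (1.86% of the table). In the plates of both agents 6 of the 31 met it, and 15 met it in neither. No share over all shRNAs is available for these joint counts, so they only describe the members.

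The shRNAs that kept their place without UMSCC8 DMSO replicate 1 and those that lost it differed in these counts. Of the 16 higher shRNAs that kept it, 9 were called against both lines in the treated plates, with median log2 differences of 2.89 against UMSCC1 and 1.95 against UMSCC25. Of the 15 that lost it, 3 were called, with medians of 1.73 and 1.51, namely TRCN0000006210, TRCN0000006257 and TRCN0000000490. The difference between these sets was not tested.

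Among the 12 higher shRNAs called against both lines, the largest fitted log2 difference from UMSCC1 belonged to TRCN0000003179. Its ratio of treated means to UMSCC1, 26.9-fold, was below the 32.0-fold of TRCN0000006255. TRCN0000003179 had 1 count over the 3 AZD8931 plates of UMSCC1, which leaves the size of its fitted difference uncertain. It had 480, 251 and 186 CPM in the AZD8931 and 209, 291 and 331 CPM in the gefitinib plates of UMSCC8, against 0, 3.75 and 0 CPM with AZD8931 and 9.47, 5.27 and 46.5 CPM with gefitinib in UMSCC1. In UMSCC25 it had 27.7, 19.6 and 2.80 CPM with AZD8931 and 29.4, 83.0 and 16.5 CPM with gefitinib, so no UMSCC8 plate overlapped those of the other lines. The log2 difference was 5.76 (SE 0.69, adjusted p = 1.06e-06) against UMSCC1 and 3.33 (SE 0.55, adjusted p = 0.000155) against UMSCC25. TRCN0000003179 was also the only higher member that was called against both lines in the AZD8931 plates alone, in the gefitinib plates alone and without any 1 of the 18 libraries.

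TRCN0000104126 was the other clone with a mean near 300 CPM that was scarce in both other lines. It had 199, 416 and 170 CPM with AZD8931 and 352, 262 and 364 CPM with gefitinib in UMSCC8, against a median of 12.2 CPM (1.85 to 91.3) over the 12 treated plates of the other lines. The log2 difference was 4.03 (SE 0.66, adjusted p = 6.45e-05) against UMSCC1 and 3.24 (SE 0.62, adjusted p = 0.000709) against UMSCC25. TRCN0000052623 had 235, 237 and 192 CPM with AZD8931 and 286, 254 and 202 CPM with gefitinib in UMSCC8, against a median of 27.9 CPM (0 to 71.8) in the other lines. Its 6 UMSCC8 plates were within 1.5-fold of each other, and its log2 differences were 2.69 (SE 0.58, adjusted p = 0.000905) and 2.99 (SE 0.58, adjusted p = 0.000833). For TRCN0000006348, with 342 ± 84.1 CPM in UMSCC8, 46.8 ± 26.7 CPM in UMSCC1 and 96.5 ± 43.3 CPM in UMSCC25 (SD, n = 6 treated plates each), the differences were 2.77 (SE 0.39) and 1.85 (SE 0.37), with adjusted p of 7.23e-06 and 0.00107.

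The most abundant member in treated plates was TRCN0000006210, with 896, 532 and 907 CPM in the AZD8931 and 799, 895 and 476 CPM in the gefitinib plates of UMSCC8. UMSCC1 had 68.0, 109 and 22.7 CPM with AZD8931 and 7.57, 0 and 19.7 CPM with gefitinib, and UMSCC25 had 163, 187 and 185 CPM with AZD8931 and 213, 128 and 388 CPM with gefitinib. Its UMSCC8 plates lay above all others, and it had the smallest adjusted p of the members, 3.03e-08 against UMSCC1, at a log2 difference of 4.74 (SE 0.45). TRCN0000006210 was nevertheless among the members that no longer met the DMSO rule without UMSCC8 DMSO replicate 1. TRCN0000006092 had 396, 368 and 387 CPM with AZD8931 and 542, 674 and 734 CPM with gefitinib in UMSCC8, against a median of 50.4 CPM (0 to 109) in the other lines. The 6 treated UMSCC8 plates of TRCN0000006092 lay above its own 3 DMSO plates (194, 292 and 302 CPM) as well, the only higher member for which this was so. Its log2 differences were 4.14 (SE 0.48, adjusted p = 5.38e-07) against UMSCC1 and 2.53 (SE 0.43, adjusted p = 0.000201) against UMSCC25.

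TRCN0000006255 and TRCN0000006257 were the only pair of members called in the same direction whose clone numbers lay within 3 of each other. TRCN0000006255 had 184, 151 and 172 CPM with AZD8931 and 46.8, 223 and 146 CPM with gefitinib in UMSCC8, against 4.81 ± 6.13 CPM in UMSCC1 and 27.2 ± 11.9 CPM in UMSCC25 (SD, n = 6 treated plates each). It differed by 5.00 (SE 0.68, adjusted p = 6.19e-06) and 2.41 (SE 0.57, adjusted p = 0.00424) on the log2 scale. TRCN0000006257 was common in all lines, with 221 ± 50.2 CPM in UMSCC8, 64.5 ± 41.9 CPM in UMSCC1 and 86.8 ± 11.9 CPM in UMSCC25, and differed by 1.65 and 1.28. Whether the clones share a target cannot be read from the table. TRCN0000000490 was 3.66-fold above UMSCC1 and 7.22-fold above UMSCC25 in treated means (269 ± 61.7 CPM against 73.6 ± 31.6 and 37.3 ± 21.8 CPM).

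The remaining 3 of the 12 were TRCN0000007333, TRCN0000000689 and TRCN0000000920, and the first 2 of them overlapped the other lines. TRCN0000007333 had 116, 151 and 142 CPM with AZD8931 and 133, 157 and 168 CPM with gefitinib in UMSCC8, against 0 to 142 CPM in the other lines, where UMSCC1 gefitinib replicate 2 was the high plate. It was called nevertheless, with log2 differences of 3.01 (adjusted p = 0.00267) and 2.35 (adjusted p = 0.0159). TRCN0000000689 averaged 131 ± 46.1 CPM in UMSCC8, against 40.1 ± 23.8 CPM in UMSCC1 and 45.7 ± 22.7 CPM in UMSCC25, and its lowest UMSCC8 plate, 53.0 CPM, lay inside their range. TRCN0000000920 averaged 116 ± 27.9 CPM in UMSCC8, against 25.3 ± 9.25 and 35.2 ± 19.4 CPM, with no overlap.

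Leaving out each of the 18 treated libraries in turn kept the call against both lines in every case for 9 of the 12. The call of TRCN0000000689 (adjusted p = 0.0374 against UMSCC25) was lost without any 1 of 9 libraries, namely UMSCC8 AZD8931 replicates 2 and 3, UMSCC8 gefitinib replicates 1, 2 and 3, UMSCC25 AZD8931 replicates 1 and 3, and UMSCC25 gefitinib replicates 2 and 3. That of TRCN0000006257 (adjusted p = 0.0305) was lost without any 1 of 7, which were UMSCC8 AZD8931 replicates 1 and 2, UMSCC8 gefitinib replicate 3, UMSCC25 AZD8931 replicates 1 and 2, and UMSCC25 gefitinib replicates 1 and 3. That of TRCN0000000920 (adjusted p = 0.0246) was lost without any 1 of 4, which were UMSCC8 AZD8931 replicate 2, UMSCC8 gefitinib replicate 2, and UMSCC25 AZD8931 replicates 1 and 3.

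The 10 higher shRNAs called against UMSCC1 alone missed the threshold against UMSCC25. TRCN0000021391 had the widest ratio of treated means to UMSCC1 among them. It had 217, 117 and 178 CPM with AZD8931 and 66.5, 69.7 and 89.7 CPM with gefitinib in UMSCC8, against 2.43, 3.75 and 5.67 CPM and 0, 0 and 8.94 CPM in UMSCC1. UMSCC25 had 44.4, 32.6 and 50.4 CPM with AZD8931 and 110, 37.7 and 20.6 CPM with gefitinib, which overlapped UMSCC8. The log2 difference was 4.73 (SE 0.69, adjusted p = 1.24e-05) against UMSCC1 and 1.14 (SE 0.55, adjusted p = 0.160) against UMSCC25. TRCN0000006058 averaged 85.6 ± 36.7 CPM in UMSCC8, against 2.72 ± 3.49 CPM in UMSCC1 and 21.7 ± 21.3 CPM in UMSCC25 (SD, n = 6), and missed the threshold against UMSCC25 narrowly, with a difference of 2.01 (SE 0.71, adjusted p = 0.0517). TRCN0000000956 (1.89, adjusted p = 0.0514), TRCN0000000447 (1.89, adjusted p = 0.0588) and TRCN0000000560 (1.51, adjusted p = 0.0590) were as near to the threshold.

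Of the same 10, TRCN0000002132 and TRCN0000022008 had UMSCC25 levels around those of UMSCC8. TRCN0000002132 averaged 104 ± 35.5 CPM in treated UMSCC8 plates, against 22.3 ± 22.9 CPM in UMSCC1 and 72.6 ± 65.9 CPM in UMSCC25, where the AZD8931 plates had 133, 37.0 and 168 CPM. TRCN0000022008 averaged 90.4 ± 37.4 CPM in UMSCC8, against 24.6 ± 10.7 CPM in UMSCC1 and 115 ± 37.3 CPM in UMSCC25, a log2 difference of -0.46 (SE 0.43, adjusted p = 0.506) against UMSCC25. In the DMSO plates the UMSCC25 mean of TRCN0000022008 was 37.4 CPM. The other members of the 10 were TRCN0000010243, TRCN0000010607 and TRCN0000005365, with differences of 1.80 to 2.54 against UMSCC1 and of 0.79 to 1.22 against UMSCC25.

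Against UMSCC25 alone 4 higher shRNAs were called, among them TRCN0000040008, a clone that the paper pairs with TGFBR2. TGFBR2 encodes the type II TGF-beta receptor, a serine/threonine kinase that binds the ligand and activates its type I partner. The gene lies on chromosome 3 at 30606502 to 30694142 of GRCh38 (GENCODE annotation, plus strand). TRCN0000040008 had 351, 87.7 and 63.1 CPM in the UMSCC8 DMSO plates, against 23.9, 88.9 and 28.5 CPM in UMSCC1 and 17.4, 12.8 and 8.61 CPM in UMSCC25, and it no longer met the rule without DMSO replicate 1. In treated plates UMSCC8 had 68.2, 151 and 63.2 CPM with AZD8931 and 27.1, 71.7 and 95.3 CPM with gefitinib, UMSCC1 had 0, 74.9 and 1.89 CPM and 36.0, 26.4 and 32.2 CPM, and UMSCC25 had 11.1, 10.9 and 0 CPM and 0, 25.1 and 2.06 CPM. All UMSCC8 plates were above those of UMSCC25 but not above those of UMSCC1. The log2 difference was 3.13 (SE 0.89, adjusted p = 0.0177) against UMSCC25 and 1.39 (SE 0.82, adjusted p = 0.200) against UMSCC1. The paper pairs 6 clones with TGFBR1 or TGFBR2, and TRCN0000040008 was the only member among them. From TRCN0000040008 and TRCN0000040011 the paper reports a loss of shRNAs against TGFBR2 with gefitinib in UMSCC8. Its control counts are those of the same UMSCC8 DMSO plates, replicate 1 included. Replicate 1 was the highest of these plates for TRCN0000040008 but the lowest for TRCN0000040011, which had 110, 117 and 191 CPM. With gefitinib TRCN0000040011 averaged 32.9 ± 19.0 CPM (SD, n = 3) in UMSCC8. The paper also lists both clones for UMSCC25, with gefitinib and with AZD8931. TRCN0000040011, the other clone paired with TGFBR2, averaged 139 CPM over the UMSCC8 DMSO plates, against 84.0 CPM in UMSCC1 and 128 CPM in UMSCC25, and had treated log2 differences of -0.62 and -0.33, so it was not set apart there.

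The other shRNAs called against UMSCC25 alone were TRCN0000002069 (2.62, SE 0.69, adjusted p = 0.0106), TRCN0000010272 (1.67, SE 0.58, adjusted p = 0.0481) and TRCN0000037436 (1.44, SE 0.48, adjusted p = 0.0403). TRCN0000037436 was at 126 ± 44.1 CPM in treated UMSCC8 plates and at 141 ± 80.9 CPM in treated UMSCC1 plates, so its place above UMSCC1 in DMSO, 221 ± 119 against 42.7 CPM, was not seen there, and the log2 difference was -0.29 (SE 0.46, adjusted p = 0.663).

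For 5 higher shRNAs neither difference passed the test. TRCN0000040045, with the widest ratio in DMSO, had 30.3, 0 and 7.90 CPM with AZD8931 and 4.93, 17.4 and 44.8 CPM with gefitinib in UMSCC8. UMSCC1 had 0 CPM in 5 of its 6 treated plates and 140 CPM, from 53 counts, in gefitinib replicate 2, and UMSCC25 had 0 to 8.39 CPM. The treated mean was thus 17.6 CPM in UMSCC8 and 23.3 CPM in UMSCC1, while the fitted difference averaged over the agents was 2.12 (SE 1.54, adjusted p = 0.303), so that means and fit differed in sign. TRCN0000006074 averaged 98.5 ± 51.4 CPM in treated UMSCC8 plates, against 55.5 ± 27.4 CPM in UMSCC1 and 63.6 ± 26.8 CPM in UMSCC25, with overlap. TRCN0000007007 averaged 75.9 ± 14.9 CPM in UMSCC8, against 96.2 ± 27.8 CPM in UMSCC1 and 34.2 ± 22.7 CPM in UMSCC25. TRCN0000000754 averaged 51.2 ± 30.1 CPM in UMSCC8, against 25.0 ± 38.0 CPM in UMSCC1 and 57.9 ± 10.8 CPM in UMSCC25, and TRCN0000006424 averaged 45.4 ± 21.5 CPM, against 24.3 ± 29.2 and 9.44 ± 9.09 CPM. All 5 were among the members that no longer met the rule without UMSCC8 DMSO replicate 1.

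Of the 7 lower shRNAs, 2 were called lower in treated UMSCC8 plates than in UMSCC1, where 13.5% of all shRNAs tested were, and 4 were called lower than in UMSCC25, where 7.58% were. Against both lines 2 of the 7 were called, beside 3.46% of all shRNAs tested and 4.51% of the 2330 that met the minimum. For 1 of the 7 all treated UMSCC8 plates lay below all treated plates of the other lines, against 0.512% of all shRNAs tested. The rule applied to the AZD8931 plates was met by 0 of the 7 (0.283% of the table met it), and applied to the gefitinib plates by 2 of the 7 (0.472% of the table), which are 13.3% of the 15 found. The median log2 difference of the 7 was -0.51 against UMSCC1 and -1.44 against UMSCC25.

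TRCN0000006434 and TRCN0000037588 were the lower shRNAs called against both lines, and both calls were kept without any 1 of the 18 libraries. TRCN0000006434 had 106, 83.6 and 170 CPM with AZD8931 and 195, 98.8 and 207 CPM with gefitinib in UMSCC8, against 129, 506 and 206 CPM and 343, 527 and 411 CPM in UMSCC1 and 590, 487 and 657 CPM and 818, 905 and 701 CPM in UMSCC25. The UMSCC8 plates lay below all UMSCC25 plates and overlapped the lowest of UMSCC1, and the log2 differences were -1.40 (SE 0.31, adjusted p = 0.00105) against UMSCC1 and -2.35 (SE 0.31, adjusted p = 1.03e-05) against UMSCC25. TRCN0000037588 had 35.4, 35.8 and 67.2 CPM with AZD8931 and 37.0, 46.5 and 22.4 CPM with gefitinib in UMSCC8, against 76.5 to 236 CPM over the other lines, without overlap. It differed by -1.69 (SE 0.39, adjusted p = 0.00185) and -1.94 (SE 0.40, adjusted p = 0.00126). In the DMSO plates that chose it, TRCN0000037588 had 2.34, 43.8 and 19.7 CPM in UMSCC8, against 143, 50.2 and 32.6 CPM in UMSCC1 and 180, 135 and 166 CPM in UMSCC25.

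TRCN0000002066 and TRCN0000010154, the lower shRNAs that still met the rule without UMSCC8 DMSO replicate 1, were called against UMSCC25 alone. The treated UMSCC8 plates of TRCN0000002066 had 60.6, 41.8 and 94.8 CPM with AZD8931 and 170, 128 and 191 CPM with gefitinib, which overlapped UMSCC1 (28.6 to 109 CPM) and left a log2 difference of 0.51 (SE 0.35, adjusted p = 0.266) there. Against UMSCC25, with 268 ± 47.4 CPM, the difference was -1.44 (SE 0.34, adjusted p = 0.00463). In the DMSO plates TRCN0000002066 had 0, 24.4 and 39.5 CPM in UMSCC8, against 132, 46.4 and 112 CPM in UMSCC1 and 132, 197 and 83.9 CPM in UMSCC25. TRCN0000010154 averaged 51.2 ± 17.0 CPM in UMSCC8, against 97.4 ± 54.2 CPM in UMSCC1 and 192 ± 74.2 CPM in UMSCC25, with differences of -1.04 (adjusted p = 0.0621) and -1.96 (adjusted p = 0.00247).

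The last 3 lower shRNAs did not keep their place in treated plates. TRCN0000000509 had 207, 51.8 and 67.2 CPM with AZD8931 and 165, 116 and 95.3 CPM with gefitinib in UMSCC8, against 33.3 to 76.3 CPM in treated UMSCC25 plates. It was called higher than in UMSCC25 there (log2 difference 1.18, SE 0.41, adjusted p = 0.0472), the opposite of the direction that chose it. In the DMSO plates it had 2.34, 26.8 and 43.4 CPM in UMSCC8, against 115, 105 and 40.9 CPM in UMSCC25. TRCN0000021465 averaged 202 ± 48.9 CPM in UMSCC8, against 273 ± 145 CPM in UMSCC1 and 286 ± 69.7 CPM in UMSCC25. TRCN0000000463 averaged 33.7 ± 13.1 CPM in UMSCC8, against 41.7 ± 34.1 CPM in UMSCC1 and 69.5 ± 66.7 CPM in UMSCC25. Both overlapped both lines.

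Within UMSCC8, treated and DMSO values are given side by side without a test, because the DMSO plates chose the members. The treated mean was below the DMSO mean for 27 of the 31 higher shRNAs and above it for 7 of the 7 lower ones. Set against DMSO replicates 2 and 3 alone, it was below for 24 of the 31 and above for 7 of the 7. The rule picked extreme UMSCC8 DMSO means, and replicates 2 and 3 took part in it. A shift in these directions is thus at least partly built into the choice, and the counts cannot measure an effect of the agents. All 6 treated plates lay below all 3 DMSO plates for 3 of the 31 higher shRNAs, TRCN0000006348, TRCN0000006074 and TRCN0000000920, and for 0 of the 7 lower ones. The share over all shRNAs tested was 4.22%. They lay above for 1 of the 31 higher shRNAs, TRCN0000006092, and for 3 of the 7 lower ones, TRCN0000002066, TRCN0000021465 and TRCN0000000509. The share over all shRNAs tested was 2.37%, and the same limit holds, since low DMSO values chose the lower shRNAs. The 31 higher shRNAs held 0.497% to 0.550% of the counts in the AZD8931 plates and 0.534% to 0.591% in the gefitinib plates of UMSCC8, against 0.578% to 1.02% in its DMSO plates, and at most 0.190% in any plate of the other lines. The 7 lower shRNAs held 0.0432% to 0.0778% with AZD8931 and 0.0705% to 0.0816% with gefitinib, against 0.00726% to 0.0390% with DMSO.

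AZD8931 and gefitinib were compared within UMSCC8, where the rule used neither. In edgeR's quasi-likelihood test 0 of the 38 members and 0 of the 3125 shRNAs tested were called in either direction (0.0% each), and DESeq2 and limma-voom also called 0. At an unadjusted p under 0.05 there were 77 shRNAs, 1 of them a member. This was TRCN0000002066, with 60.6, 41.8 and 94.8 CPM with AZD8931 against 170, 128 and 191 CPM with gefitinib, a log2 difference of -1.34 (SE 0.49, unadjusted p = 0.0106) without overlap. The differences of the 31 higher shRNAs ranged from -1.11 to 1.14 with a median of -0.09, beside -0.01 over all shRNAs tested. Whether this difference between the agents itself differed between lines was tested as an interaction, and 0 shRNAs were called, with 6 members of 451 shRNAs at an unadjusted p under 0.05 for UMSCC8 against UMSCC1 and 2 of 124 for UMSCC8 against UMSCC25.

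No shRNA with a clone number next to that of a member was itself a member. The 31 higher shRNAs had 56 neighbours 1 number away, and 26 of these (46.4%) had a UMSCC8 DMSO mean above both other lines, against 39.4% of all shRNAs. In treated plates 3 of the 54 neighbours tested were called higher against both lines, beside 3.62% of all shRNAs tested, a share near that background. They were TRCN0000104127 next to TRCN0000104126, TRCN0000007334 next to TRCN0000007333, and TRCN0000000919 next to TRCN0000000920. The 7 lower shRNAs had 13 neighbours, 1 of which (7.69%) lay below both lines in DMSO, against 26.9% of all shRNAs, and 0 of the 12 tested were called lower against both lines, beside 3.46% of all shRNAs tested. TRCN0000002066, a lower shRNA, and TRCN0000002069, a higher one, lay 3 numbers apart and were set apart in opposite directions.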

How the data were processed

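Pooled kinome shRNA libraries (MISSION TRC clones) were counted in 27 plates, 3 per line and agent, grouped by the titles of the samples. The table deposited by the authors holds raw counts for every shRNA in every library, not normalized, and all of its sample columns were used. The submitters' processing notes name Bowtie 1.0.0, edgeR and hg19 without their roles. The table gives neither gene names nor hairpin sequences, and no list of target genes was tested. TGFBR2 was located in GRCh38 (GENCODE 29), which is not the build of the notes, and no coordinates were converted.

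CPM were computed on library totals. Tests on the treated libraries used edgeR 4.0.16 under R 4.3.3 (TMM, shRNAs with at least 10 counts summed, robust quasi-likelihood fit of 6 groups, no replicate term, adjusted p threshold of 0.05). The SE of a log2 difference was derived from the quasi-likelihood F. The fit was tested on simulated counts with known changes, drawn independently for each plate with the spread that the fit itself estimated. That test cannot show how the fit performs where plates share variation. Alternatives were other scalings and filters, DESeq2 1.42.0, limma 3.58.1 (voom), a replicate term, the plates of 1 agent, each library left out, and other thresholds of the rule.

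The shRNAs named were the members with the widest ratios, those next to the threshold, those resting most on UMSCC8 DMSO replicate 1, those smallest or opposite in treated plates, and clones of the TGF-beta receptors or with neighbouring numbers; the remaining members were added after their values were seen. The members and this rule were chosen with earlier results of these data known. No 2 plates of a group agreed within sampling noise (reduced chi-square of the counts 6.08 to 39.4).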

Additional observations from a re-analysis of the deposited data

How the results depend on the processing

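The number of members depended on the rule and the libraries. With a 2-fold threshold 130 shRNAs were higher and 33 lower in UMSCC8, with a 4-fold threshold 17 and 1. With a minimum of 50 CPM there were 51 and 17, and with 200 CPM 15 and 2. Medians over plates gave 29 higher shRNAs, which held 16 of the 31 higher members, and 11 lower shRNAs, which held 4 of the 7 lower members. TMM-scaled totals gave 24 higher shRNAs, all of them members, and 8 lower shRNAs, which held all 7 lower members. The gefitinib plates in place of the DMSO plates gave 59 and 15. Leaving out each DMSO library in turn gave 26 to 53 higher and 5 to 24 lower shRNAs, lowest without UMSCC8 DMSO replicate 1 and highest without UMSCC8 DMSO replicate 2, and 45 and 16 without UMSCC8 DMSO replicate 3. Without UMSCC1 DMSO replicate 2 there were 31 higher shRNAs, which held 27 of the higher members. The 10 lower shRNAs found without it held 6 of the lower members.

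In treated plates 988 shRNAs were called between UMSCC8 and UMSCC1 and 469 between UMSCC8 and UMSCC25, of which 113 were higher and 108 lower against both. The AZD8931 plates alone gave 630 and 36, with 7 higher and 6 lower against both, of which 2 and 1 were members. The gefitinib plates alone gave 310 and 211, with 23 and 36 against both, of which 6 and 2 were members. With limma-voom 190 shRNAs were higher against both. Leaving out each treated library gave 778 to 1099 calls against UMSCC1, 308 to 659 against UMSCC25, 68 to 143 higher and 68 to 130 lower against both, of which 9 to 18 and 2 to 3 were members, and 0 for AZD8931 against gefitinib. With UMSCC1 AZD8931 replicate 1 and UMSCC8 gefitinib replicate 3 both left out, 2 of the 7 lower shRNAs did not overlap the other lines. The other scalings and filters gave 14 higher and 2 lower members called, beside 112 to 135 higher and 81 to 108 lower shRNAs in all. DESeq2 called 15 and 3 members, beside 156 and 121 shRNAs in all, and limma-voom 18 and 2, beside 190 and 92.

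Same-numbered plates of different groups correlated between -0.32 and 0.26 over 45 pairs, 8 of them above 0.1, so no general pairing by number was seen. These values and those that follow are not correlations of shRNA abundance itself. In abundance, the UMSCC8 plates correlated with the others of their line at medians of 0.776 to 0.906. Between lines, AZD8931 plates correlated at 0.087 to 0.26 for replicates 1 and 2 and at -0.089 to 0.068 for replicate 3. Gefitinib plates correlated at -0.32 to 0.12 between lines. Whether the AZD8931 plates shared something by number was not tested. A replicate block gave 12 and 2 members called, beside 96 higher and 93 lower shRNAs in all. Scaling by total counts moved the median log2 difference of all shRNAs against UMSCC1 by 0.13.

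Of 2128 single differences under these settings, 1954 kept direction and call, 111 lost the call, 56 gained it and 7 changed sign. The AZD8931 plates alone gave -0.41 for TRCN0000002132 against UMSCC25 and -0.54 for TRCN0000002066 against UMSCC1. The gefitinib plates alone gave -1.21 for TRCN0000040045, -0.18 for TRCN0000006424 and 0.47 for TRCN0000000509, all against UMSCC1. TRCN0000000463 against UMSCC1 was 0.045 with limma-voom, and between -0.68 and 0.29 with each library left out in turn, the highest without UMSCC1 AZD8931 replicate 2 and the only positive one. The cause of these changes was not tested, except that 1 agent's plates and left-out libraries leave fewer samples. Depth limits the members near 0 in a line, where 3 counts stand for 5.36 to 16.8 CPM.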

Other observations

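Leaving UMSCC8 DMSO replicate 1 out of the rule also brought in 10 higher and 3 lower shRNAs that are not members. TRCN0000009972 had 2.34 CPM there and 82.8 and 130 CPM in the other UMSCC8 DMSO plates, against means of 9.11 CPM in UMSCC1 and 11.5 CPM in UMSCC25. TRCN0000018002 had 0 CPM there and 110 and 181 CPM in the other plates, and TRCN0000000681 had 2.34 CPM there and 97.4 and 152 CPM. In treated plates, which this choice did not use, 7 of the 10 higher and 2 of the 3 lower shRNAs were called against both lines, where 3.62% and 3.46% of all shRNAs tested were.

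The treated UMSCC8 plates of TRCN0000009972 averaged 146 ± 55.8 CPM (SD, n = 6), against 10.1 CPM in UMSCC1 and 14.6 CPM in UMSCC25, with log2 differences of 3.74 (SE 0.68, adjusted p = 0.000176, edgeR's quasi-likelihood test) and 3.57 (SE 0.67, adjusted p = 0.000591). TRCN0000000681 differed by 7.07 (SE 1.05, adjusted p = 1.97e-05) and 2.70 (SE 0.73, adjusted p = 0.0131), and its UMSCC1 plates averaged 1.25 CPM, which is under the 3 counts that a count of 0 allows. Of the lower shRNAs, TRCN0000003228 had 255 CPM in UMSCC8 DMSO replicate 1 and 70.6 and 96.7 CPM in the other plates, against means of 299 CPM in UMSCC1 and 573 CPM in UMSCC25. Its treated UMSCC8 plates averaged 105 ± 33.0 CPM, against 434 and 707 CPM, with log2 differences of -2.14 (SE 0.30, adjusted p = 6.67e-06) and -2.81 (SE 0.30, adjusted p = 1.04e-06). These shRNAs were looked at after the data were seen, and they met the rule with UMSCC8 DMSO replicate 1 left out. TRCN0000022004, also brought in this way, lay just outside the threshold with all libraries kept, at a ratio of 2.95. Leaving out other DMSO libraries also brought in shRNAs that are not members.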
